A study of Mus musculus with 6 samples.

Results

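The genes described here are 10 members of the NF-kappaB system, taken by name from the 34745 genes of the deposited table. They are the subunit genes Nfkb1, Nfkb2, Rela, Relb and Rel, the inhibitor genes Nfkbia, Nfkbib and Nfkbie, the feedback gene Tnfaip3 and the kinase gene Ikbkb, and all 10 were found once each. RNA came from MLE-12, an immortalized mouse lung epithelial cell line, in which every sample received a pCMV-SPORT6 plasmid by lipofection. In 3 samples the plasmid carried the NR4A1 open reading frame (NR4A1 overexpression), and in 3 it was empty (vector control). The share of cells that took up a plasmid and the time from transfection to RNA extraction were not given for these libraries, and nothing in the labels says that they came from separate cultures, so p-values measure the spread between these libraries, which may be technical.

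NF-kappaB is a family of transcription factors that act as pairs of subunits. In resting cells the pairs are held in the cytoplasm by IkappaB proteins, and inflammatory signals such as tumour necrosis factor, interleukin-1 and bacterial lipopolysaccharide activate the IkappaB kinase complex, which marks the inhibitors for degradation and lets the subunits enter the nucleus. Among the genes then switched on are several of the family itself, so that new inhibitor and the deubiquitinating enzyme A20 close the response. In lung epithelium the pathway drives chemokine and cytokine expression during infection and injury. NR4A1 belongs to the nuclear receptor family of transcription factors.

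Sequences around the start sites are shown because kappaB elements are the letters through which NF-kappaB binds DNA. RefSeq start-site windows on GRCm38.p6, running from 250 bases before to 50 bases after an annotated start, were held for 7 of the 10 genes, and Nfkb1, Relb and Ikbkb had no entry. The kappaB consensus, searched on both strands, was found in the windows of 5 of the 7 (Nfkbia, Nfkb2, Rel, Nfkbie and Tnfaip3), whereas it occurred in 5.14% of the 27025 genes with a window. Neither Rela nor Nfkbib had a match. The 5 stretches of 30 bases below show, for each of these genes, the match that lay nearest before a start site, written 5′ to 3′ on the strand of the gene, with the kappaB match in capitals (2 overlapping matches in Rel).
Nfkbia (chr12:55492657-55492686, minus strand, match from position -29): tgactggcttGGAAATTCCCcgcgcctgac
Nfkb2 (chr19:46304716-46304745, plus strand, match from position -11): ggggccgaaaGGGGCTTTCCcggctggagc
Rel (chr11:23771041-23771070, minus strand, match from position -92): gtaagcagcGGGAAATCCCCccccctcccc
Nfkbie (chr17:45555584-45555613, plus strand, match from position -106): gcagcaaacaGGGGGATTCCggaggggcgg
Tnfaip3 (chr10:19015403-19015432, minus strand, match from position -12): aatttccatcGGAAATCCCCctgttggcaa
The NBRE, the 8-letter element AAAGGTCA to which NR4A1 is known to bind as a single protein, was in none of the 10 windows of the 7 genes on either strand, and in 1.70% of all genes with a window. A match is a description of letters and not of a bound site, and its absence says only that these letters are not in these windows.

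Total counts lay between 15019038 and 17574340 per library, and every pair of libraries within a group differed by more than counting error (chi-square per degree of freedom from 9.36 to 41.8). Nr4a1 had 50660, 60093 and 68555 counts with the NR4A1 plasmid and 428, 510 and 463 with the vector, so all 6 libraries matched their labels. Of the 8 lung epithelial markers, Krt8, Nkx2-1, Sftpc, Sftpb and Cdh1 were counted at least 189 times in every library, while Cldn4 was at 0 or 1, Epcam at 22 counts or fewer, and Krt18 at 164 counts in NR4A1 overexpression replicate 2 and from 2 to 21 elsewhere. NR4A1 overexpression replicate 2 stood apart, where 347 genes reached 1 CPM and exceeded each remaining library by a factor of 10 or more, against 10 or fewer such genes in each of the other 5. In that library the 6 smooth muscle markers summed to 329 CPM against 3.06 to 5.23 elsewhere, the 8 endothelial markers to 120 against 13.1 to 15.8, the 8 fibroblast markers to 1642 against 923 to 1054, and the 8 immune markers to 5.49 against 2.13 to 3.44. Dcn, with 14138 to 17269 counts in every library, held most of the fibroblast sum. Vector control replicate 1 had 284 counts of Col1a2, 160 of Fbn1 and 92 of Pdgfra, against 4504, 2190 and 611 in NR4A1 overexpression replicate 2. The remaining libraries had 10 to 45, 13 to 44 and 12 to 18. Dcn and Lum were not highest in either of these libraries. None of the 10 NF-kappaB genes was among these 347 of the 34745 genes in the table, a share so small that this does not set the 10 apart. In bulk RNA, fewer cells of a type and less RNA per cell cannot be told apart.

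Expression of the NF-kappaB genes differed little between NR4A1 overexpression and vector control. Of the 10, 4 had a higher and 6 a lower estimate with NR4A1, from a log2 fold change of -0.11 in Nfkb2 to 0.22 in Tnfaip3, with a median of -0.04. With each library left out in turn the median ran from -0.08 (without vector control replicate 1) to -0.01 (without NR4A1 overexpression replicate 1). Without NR4A1 overexpression replicate 2 it was -0.07, the estimates ran from -0.15 in Rela to 0.31 in Rel, and those of Nfkbib and Nfkbie turned to -0.07 and -0.08. The threshold combined a 2-fold change with an adjusted p below 0.05 (edgeR, quasi-likelihood). No member met it, while 22 of 12941 tested genes did (0.170%), or 28 without NR4A1 overexpression replicate 2 and from 3 to 6 without any 1 of the other 5 libraries. None had an unadjusted p under 0.05 either, in edgeR or in DESeq2, against 6.46% of all genes tested with edgeR. All 10 passed the filter on low counts, the lowest count of a member in any library being 63. The 95% interval of every member included no change and stayed inside a 2-fold change in both directions, with an outermost lower bound of 0.726-fold (Nfkbib) and an outermost upper bound of 1.53-fold (Rel).

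**Figure D1:**
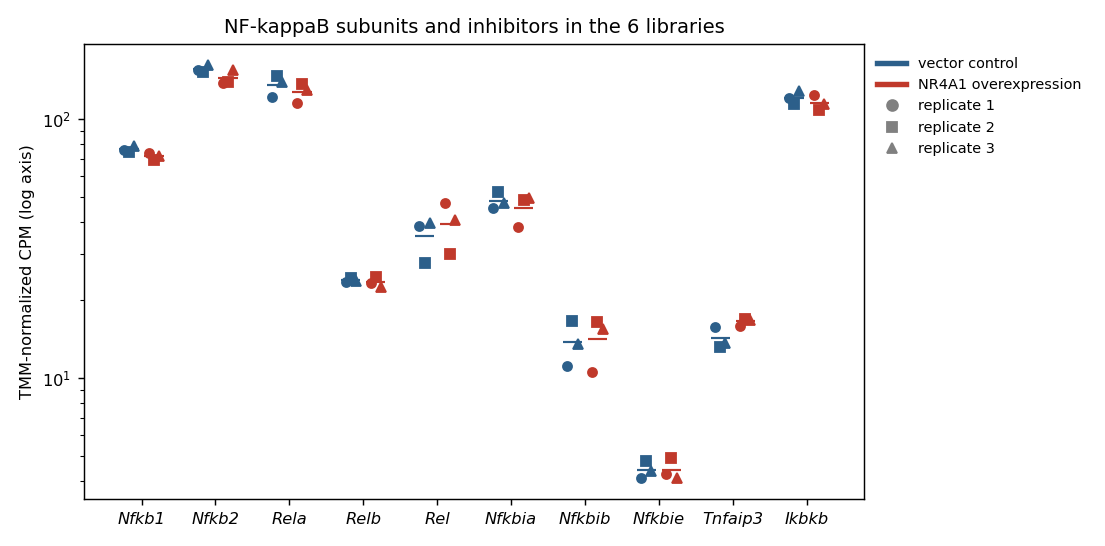
TMM-normalized CPM of the 10 genes on a log axis, with 1 symbol per library (circle, square and triangle for replicates 1, 2 and 3), vector controls in blue, NR4A1 overexpression in red, and a line at each group mean (n = 3). The groups overlap in 8 genes, and for Rel the square lies lowest in both colours, at 30.2 and 27.9 CPM.

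The subunits with a transactivation domain are Rela, Relb and Rel. Rela (chr19:5637483-5648130, plus strand, GRCm38 as for all genes here), the partner in the classical NF-kappaB dimer, gave 1699, 2280 and 2234 counts with NR4A1 and 2113, 2442 and 2446 with vector. That is 127 ± 10.7 against 136 ± 12.0 TMM-normalized CPM (SD, n = 3 each; CPM is the count scaled to a common library total with edgeR's TMM factors) and a log2 fold change of -0.10 (95% interval from -0.33 to 0.13). Replicate 1 was the lowest library of both groups, and the ranges of the groups overlapped. Relb (chr7:19606217-19629438, minus strand), which pairs with the product of Nfkb2 in the alternative pathway, had 345, 413 and 389 counts against 405, 408 and 418 and a log2 fold change of -0.02 (95% interval from -0.21 to 0.16). Its group means of 23.5 ± 1.07 and 23.8 ± 0.470 CPM (SD, n = 3 each) were closer than the spread within either group. Rel (chr11:23736847-23770970, minus strand), the subunit best known from lymphocytes, had 701, 507 and 703 counts with NR4A1 and 669, 467 and 700 with vector. Its log2 fold change was 0.15 with a wide 95% interval from -0.31 to 0.62, since replicate 2 lay well below replicates 1 and 3 in both groups.

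The precursor subunits are Nfkb1 and Nfkb2, whose long products contain IkappaB-like repeats and are processed to the short DNA-binding forms. Nfkb1 (chr3:135584655-135691547, minus strand) had 1096, 1167 and 1247 counts against 1314, 1247 and 1390, or 71.9 ± 2.29 against 76.4 ± 2.18 CPM (SD, n = 3 each). Every NR4A1 library was below every vector control in CPM, by a small margin (74.1 against 74.4 at the nearest), and the log2 fold change was -0.09 (95% interval from -0.27 to 0.09, adjusted p = 0.906 in edgeR). With median-ratio size factors in place of TMM the groups of Nfkb1 overlapped. Nfkb2 (chr19:46304737-46312090, plus strand), the more abundant of the precursors, was counted 2047, 2329 and 2686 times against 2654, 2550 and 2856 times, which is 144 ± 9.59 against 156 ± 5.18 CPM (SD, n = 3 each). The log2 fold change of Nfkb2 was -0.11 (95% interval from -0.29 to 0.06), with the third NR4A1 library inside the range of the vector controls. Both precursor estimates were thus a few percent below vector (-5.91% for Nfkb1 and -7.53% for Nfkb2) without passing the test.

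Among the IkappaB inhibitors, Nfkbia (chr12:55489411-55492647, minus strand), the gene of IkappaB-alpha, showed no detectable difference between the groups. Its counts were 563, 814 and 859 with NR4A1 and 783, 876 and 836 with vector, or 45.4 ± 6.37 against 48.3 ± 3.58 CPM (SD, n = 3 each), which gave a log2 difference of -0.09 with a standard error of 0.123 (edgeR, adjusted p = 0.951). The 95% interval of Nfkbia ran from 0.769-fold to 1.15-fold. The first NR4A1 library was the lowest of the 6, and the other NR4A1 libraries lay within the range of the vector controls. Nfkbib (chr7:28758251-28767512, minus strand), which encodes the slower IkappaB-beta, had 156, 276 and 269 counts against 192, 279 and 239, with a log2 fold change of 0.04 and the widest interval of the set (-0.46 to 0.55). Replicate 1 was the lowest of its group on both sides. The Nfkbib locus overlaps Sirt2 on the opposite strand over 778 bases, and Sirt2 had between 1104 and 1616 counts per library. The libraries are described as strand-specific, but whether counting used the strand is not given in the sources used here, so the level of Nfkbib is uncertain. Nfkbie (chr17:45555716-45563169, plus strand), for IkappaB-epsilon, was the least counted member, with 63, 82 and 71 counts against 71, 80 and 77. Its estimate was 0.00043 on the log2 scale (95% interval from -0.42 to 0.42), with groups that overlapped almost completely.

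Tnfaip3 (chr10:19000910-19015657, minus strand) encodes A20, which removes ubiquitin chains from signalling complexes upstream of the kinase, and it had the smallest p of the 10. The NR4A1 libraries held 235, 283 and 291 counts and the vector controls 272, 221 and 242, and all NR4A1 values lay above all vector values after TMM scaling (15.9, 16.9 and 16.8 against 15.7, 13.2 and 13.7 CPM). The log2 difference was 0.22 with a standard error of 0.109 (unadjusted p = 0.0865 and adjusted p = 0.822 in edgeR), or 16.2%, and the 95% interval ran from 0.973-fold to 1.39-fold. With library totals in place of TMM factors, the first libraries of the groups changed order and the groups of Tnfaip3 overlapped. Tnfaip3 and Nfkb1 were the 2 members whose groups did not overlap, 1 in each direction, in a comparison in which 12.9% of all tested genes had groups that did not overlap. Without NR4A1 overexpression replicate 2, the members without overlap were Rel and Tnfaip3 above and Nfkb1 and Relb below, 4 of 10, beside 27.6% of all genes tested with 2 libraries against 3.

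Ikbkb (chr8:22659212-22706589, minus strand) encodes IKK-beta, the kinase that phosphorylates the inhibitors in the classical pathway. It was counted 1834, 1812 and 1981 times with NR4A1 and 2079, 1907 and 2255 times with vector, with 115 ± 8.07 against 121 ± 6.97 CPM (SD, n = 3 each). The groups overlapped, and the log2 fold change of -0.06 had a 95% interval from -0.26 to 0.13.

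**Figure D2:**
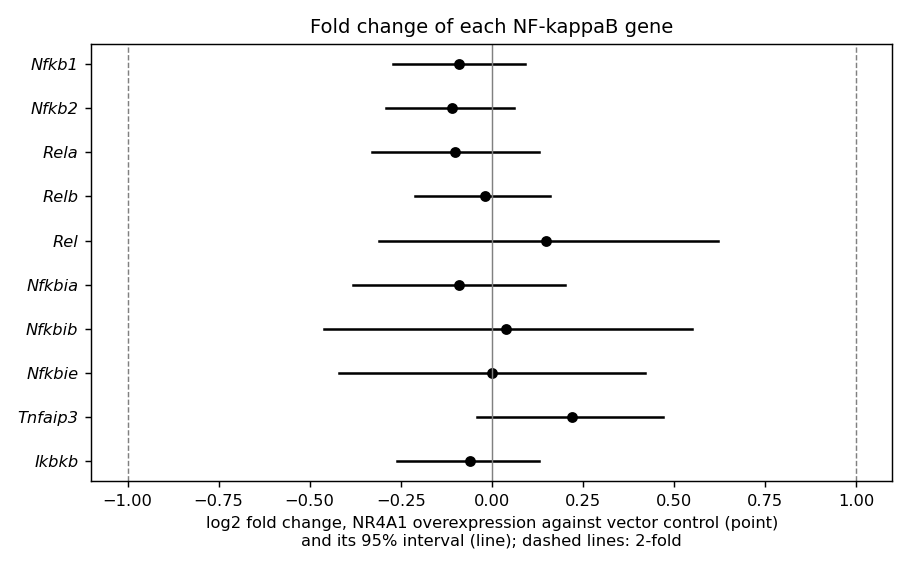
Log2 fold change of each gene with NR4A1 overexpression against vector control (points, edgeR) and its 95% interval (lines), with dashed lines at a 2-fold change. All 10 intervals cross 0 and none reaches a dashed line, the widest being those of Nfkbib, Rel and Nfkbie.

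The members with wide intervals varied among libraries in a manner that the groups shared. On the log2 CPM scale, Rel in replicate 2 was 0.36 below its group mean with NR4A1 and 0.33 below it with vector. Nfkbib went the other way, at 0.24 and 0.29 above the group mean in replicate 2 and at 0.40 and 0.29 below it in replicate 1. Rela followed Nfkbib at a smaller scale, 0.14 below in replicate 1 and 0.11 above in replicate 2 of either group. For Nfkbia the deviations were -0.24, 0.11 and 0.14 with NR4A1 and -0.09, 0.12 and -0.03 with vector, so that here replicate 3 of the groups differed in sign. Across all tested genes, the deviations of same-numbered libraries had correlations of -0.011, -0.046 and 0.246 for replicates 1, 2 and 3. Pairs with unlike numbers ran from -0.398 to 0.291, so the value of replicate 3 does not set that pair apart. The labels do not say that a number marks a shared day or batch.

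**Figure D3:**
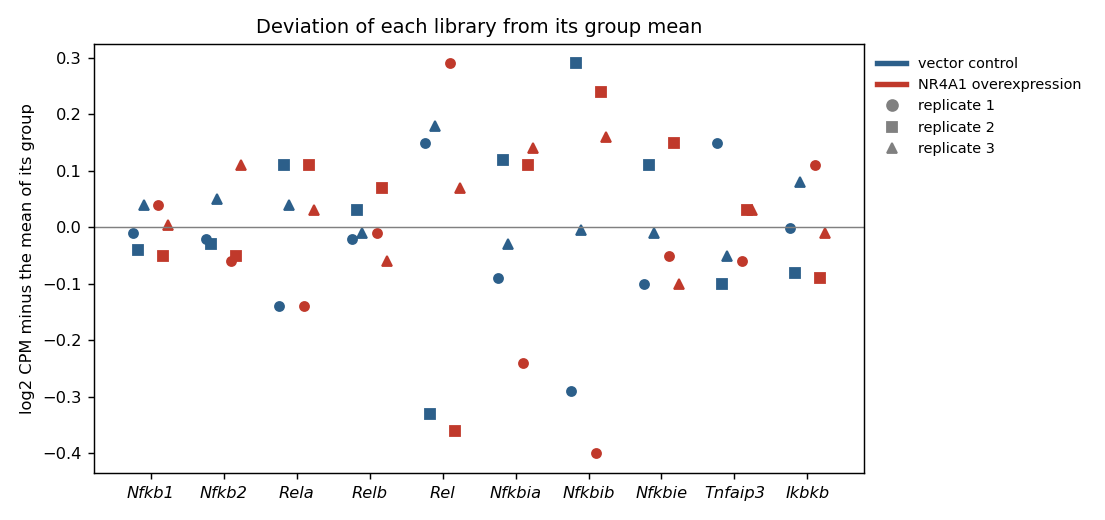
Deviation of each library from the mean of its own group, in log2 CPM, for the 10 genes, with vector controls in blue, NR4A1 overexpression in red and the replicate number as circle, square or triangle. The squares of Rel lie at -0.33 and -0.36, and the circles of Nfkbib at -0.29 and -0.40, in the vector and NR4A1 groups.

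Levels between genes were compared per length, with the deposited FPKM (counts scaled to gene length and to the total count of the library). Rela was highest, at 46.2 ± 4.10 FPKM with NR4A1 and 50.2 ± 4.62 with vector, and Nfkb2 followed at 42.2 ± 3.07 and 46.3 ± 1.46 (SD, n = 3 each). The ranges of these genes over the 6 libraries overlapped. Nfkbia came next, from 23.8 to 33.5 FPKM, below every value of Nfkb2. The 5 genes Rel, Ikbkb, Nfkbib, Nfkb1 and Relb lay between 3.50 and 6.25 FPKM with neighbours that overlapped, Nfkbie followed below all of them at a mean of 1.82, and Tnfaip3 was lowest, down to 0.955 FPKM and with every value below those of Nfkbie. In MLE-12 cells of either group, Rela and Nfkb2 thus made up 84.6% to 88.6% of the summed deposited FPKM of the 5 subunits. Nfkbia made up 80.3% to 84.1% of that of the 3 inhibitors. Both shares rest on the deposited gene lengths.

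The middle of this order depended on the gene length behind the deposited values. The length implied by count and FPKM was 24415 bases for Ikbkb, 16227 for Nfkb1 and 13958 for Tnfaip3. The longest coding transcripts of these genes in GENCODE M21 have 3977, 4117 and 4422 bases. All their annotated exons together cover 19078, 12061 and 7226 bases, which lies between these lengths for each gene. Scaled instead to the longest coding transcript, the mean level over the 6 libraries in FPKM was 29.6 for Ikbkb, close to 29.7 for Nfkbia, and 18.0 for Nfkb1, and Tnfaip3 at 3.47 stood above Nfkbie at 1.81. For Rela, Rel, Nfkbia and Nfkbie both lengths were nearly equal, and Rela and Nfkb2 stayed on top. Fold changes between the groups are not touched by this length, which is the same in every library.

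**Figure D4:**
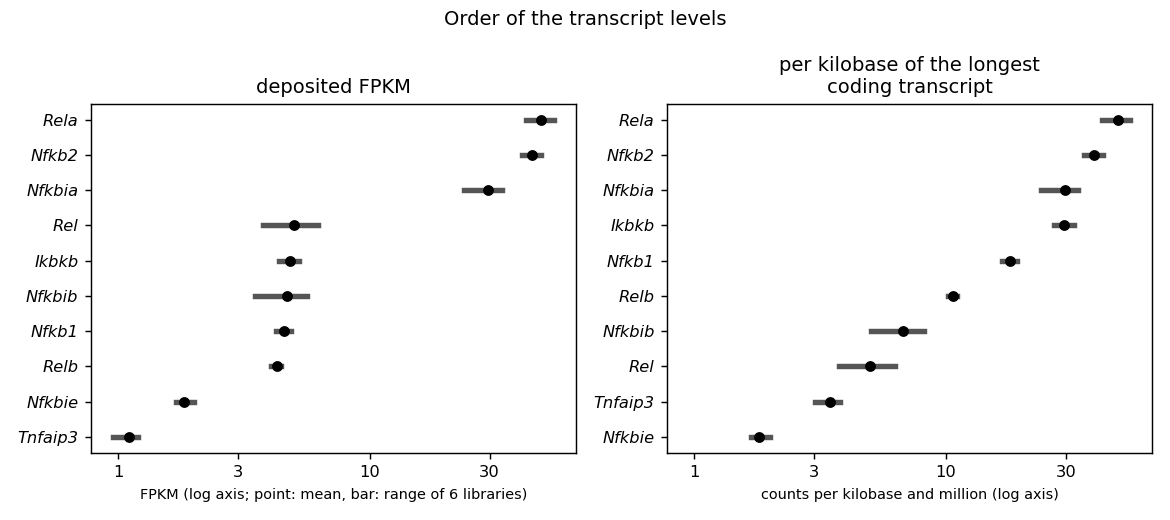
Transcript level of the 10 genes on log axes, as deposited FPKM (left) and rescaled to the longest coding transcript (right), with the mean (point) and range (bar) of the 6 libraries. Rela and Nfkb2 lead on both sides. Nfkbia follows them on the left and overlaps Ikbkb on the right. Ikbkb rises from 4.83 to 29.6 and Nfkb1 from 4.56 to 18.0 with the shorter length.

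The balance of inhibitor to subunit transcripts was described without a test, on the deposited FPKM and thus with the deposited gene lengths. The 3 IkappaB genes made up 23.0%, 27.0% and 26.3% of the summed FPKM of inhibitors and subunits with NR4A1 and 24.6%, 26.8% and 24.3% with vector, or 25.4% ± 2.10 against 25.2% ± 1.34 (SD, n = 3 each). The difference was smaller than the spread within either group. The ratio of Nfkbia to Rela FPKM was 0.571, 0.615 and 0.662 against 0.638, 0.618 and 0.589, with ranges that overlapped.

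No other gene of the pathway passed the threshold. Of 58 genes outside the members, 54 were tested, and the median log2 fold change was -0.01 beside 0.01 for all tested genes, or -0.07 beside -0.0017 without NR4A1 overexpression replicate 2. The 3 atypical IkappaB genes ranged from -0.34 in Bcl3, which was -0.81 without NR4A1 overexpression replicate 2 and -0.10 without vector control replicate 1, to 0.15 in Nfkbiz, which was 0.09 without the former. The 13 kinases and kinase partners ranged from -0.19 in Map3k14 to 0.59 in Ikbke (51, 67 and 46 counts against 34, 34 and 48). Map3k14 encodes the NF-kappaB-inducing kinase of the alternative pathway and had 309, 329 and 395 counts against 423, 388 and 437. Its groups did not overlap in CPM, as in 3 of the 54 pathway genes and in 12.9% of all tested genes. In edgeR the adjusted p was 0.796 for Map3k14 and 0.775 for Ikbke, and with each library left out in turn their log2 values ran from -0.26 to -0.14 and from 0.44 to 0.75. The 13 negative regulators ranged from -0.47 in Tnip3, which was -0.09 without vector control replicate 1, to 0.19 in Nkrf.

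An unadjusted p under 0.05 was found for 2 of the 54 pathway genes, both of them receptors, against 6.46% of all genes tested. For each of them all 3 NR4A1 values lay below all 3 vector values after TMM scaling, a separation that 12.9% of all tested genes had in either direction. Tlr2, a receptor for bacterial lipoproteins, had 140, 186 and 189 counts against 218, 247 and 262, with a log2 fold change of -0.42 (95% interval from -0.73 to -0.12, unadjusted p = 0.0131 and adjusted p = 0.567 in edgeR). Tnfrsf1a, the main receptor for tumour necrosis factor, had 2035, 2799 and 2720 counts against 3087, 3157 and 3070, with a log2 fold change of -0.23 (unadjusted p = 0.0362 and adjusted p = 0.731 from the same edgeR test). Neither passed the correction over all tested genes, and with each library left out in turn the log2 values stayed between -0.50 and -0.35 for Tlr2 and between -0.29 and -0.16 for Tnfrsf1a. Of the 10 receptor genes 8 were tested. Tlr4, the receptor for lipopolysaccharide, had the lowest estimate, -0.77, from 101, 34 and 17 counts against 103, 95 and 89, with an interval from -2.22 to 0.67. The estimate of Tlr4 was -1.88 without NR4A1 overexpression replicate 1, -0.53 without replicate 2 and -0.34 without replicate 3 of that group. Il1r1, the interleukin-1 receptor, had the highest, 0.23, which became -0.25 without NR4A1 overexpression replicate 2. Cd40 was counted 0 times in all libraries, which at these totals allows up to 0.171 to 0.200 CPM (3 counts, for counting error only).

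Of the 19 adaptor and ubiquitin ligase genes, 17 were tested and the median log2 fold change was -0.03. The lowest estimate was -0.16, in Traf3, which turned to 0.09 without NR4A1 overexpression replicate 2 and to 0.02 without vector control replicate 3, and was -0.56 without NR4A1 overexpression replicate 3. Birc3, a ubiquitin ligase of receptor complexes and itself a target of NF-kappaB, had the highest, 0.92, with 6, 62 and 5 counts against 15, 9 and 16. The high value came from NR4A1 overexpression replicate 2 alone, and without it the log2 fold change of Birc3 was -1.15 (unadjusted p = 0.0497 and adjusted p = 0.606 in edgeR).

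Of 30 known target genes, 17 were tested and none passed the threshold, with 12 higher and 5 lower estimates and a median log2 fold change of 0.07, which was 0.00012 without NR4A1 overexpression replicate 2. An unadjusted p under 0.05 in edgeR was found for 1 of the 17, beside 6.46% of all tested genes. This was Cxcl1, a neutrophil chemokine, with 63, 55 and 76 counts against 44, 49 and 49, a log2 fold change of 0.53 (95% interval from 0.04 to 1.02, unadjusted p = 0.0366 and adjusted p = 0.731 in edgeR) and groups that did not overlap in CPM, as in 12.9% of all tested genes. It stayed between 0.45 and 0.65 with each library left out in turn and did not pass the correction over all genes. In DESeq2, and in edgeR without a count filter or without any 1 vector control, no target gene had an unadjusted p under 0.05. The other alternatives gave 1 to 5 such target genes. Bcl2l1, which encodes an inhibitor of apoptosis, had the lowest estimate, -0.34, with 316, 615 and 393 counts against 408, 456 and 904, and was -0.63 without NR4A1 overexpression replicate 2 and 0.08 without vector control replicate 3. Cxcl2, Il1b and Bcl2a1b were at 0 in all 6 libraries, and Tnf had 2 counts in 1 vector control and 0 elsewhere.

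Several target genes were high in NR4A1 overexpression replicate 2, the library with the high smooth muscle, endothelial and fibroblast markers. Tnfaip2, with the highest estimate of the list at 3.95, had 9, 624 and 1 counts with NR4A1 and 39, 1 and 2 with vector, and its log2 fold change was -1.33 without that library. Csf1, the growth factor of macrophages, had 1168, 5617 and 1328 counts against 1353, 1279 and 1334, and its log2 fold change fell from 1.09 to 0.02 without it. Ccl2 was counted 63 times there, 5 times in vector control replicate 1 and 0 times in the other 4 libraries. Ptgs2 went from 0.98 to 0.35. The part that RNA of other cells had in these values was not tested. For the 10 NF-kappaB genes, the values in this library lay from 0.36 below (Rel) to 0.24 above (Nfkbib) the NR4A1 mean on the log2 scale. That mean includes this library, and whether RNA of other cells added to these genes was not tested either.

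For 3 members, the genes with the most similar pattern over the 6 libraries were looked up among all tested genes, by the root mean square difference of log2 CPM after each gene was centred on its own mean. These were Phyhip and Btbd2 for Nfkbia (0.0240 and 0.0250), Usp19 and Scaf1 for Nfkb2 (0.0186 and 0.0189), and Ccdc142 and Eny2 for Relb (0.0148 and 0.0155). The members' own SD over the 6 libraries was 0.159, 0.0916 and 0.0467 on the same scale, and over so few libraries and so many genes close matches are easily found.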

How the data were processed

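Strand-specific RNA libraries of MLE-12 cells (3 NR4A1 overexpression, 3 vector control) were compared. The authors deposited read counts per gene and FPKM, scaled by total count and a fixed gene length. The submitters' processing notes name HISAT2 2.0.4 and GRCm38.p4, and the counting program and annotation are not given in the sources used here. Members and gene lists were chosen with earlier results of these data known.

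From the counts, edgeR 4.0.16 (R 4.3.3) gave TMM factors, the filterByExpr filter and quasi-likelihood tests, with Benjamini-Hochberg adjustment over 12941 genes and a threshold of adjusted p under 0.05 and 2-fold. Total counts per library and the resulting 95% intervals set the precision. Named were all members, list genes with an unadjusted p under 0.05, the extremes of each list, and genes at 0 throughout. Genes described as high in replicate 2, and Tnf, were chosen after their values were seen. Alternatives were the exact test of edgeR, DESeq2 1.42.0, voom in limma 3.58.1, other scalings and filters, log2(FPKM + 1) or + 0.1, the replicate block and each library left out. The level per coding transcript was added after seeing the data. The pipeline was tested on simulated data.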

Additional observations from a re-analysis of the deposited data

How the results depend on the processing

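No member of the NF-kappaB set passed the threshold under any alternative that was run. No gene of the pathway or target list did either, but these lists were not counted with log2(FPKM + 0.1). The 160 values of the 10 members under the alternatives kept their side of the threshold, 144 also kept their sign, and the 16 that changed sign were at most 0.09 in size. With each library left out in turn, the log2 fold change ran from -0.06 to 0.00037 for Relb, from -0.00047 to 0.31 for Rel, from -0.17 to 0.02 for Nfkbia, from -0.09 to 0.22 for Nfkbib and from -0.08 to 0.06 for Nfkbie. Nfkbie, at 0.00043, also changed sign with DESeq2 (-0.0016), a filter at a mean of 10 counts (-0.00046), library totals (-0.02), no filter (-0.0006), log2(FPKM + 1) (-0.01), log2(FPKM + 0.1) (-0.02) and the replicate block (-0.0013). The number of members whose groups did not overlap was 2, beside 12.9% of all tested genes. It was 1 with median-ratio size factors, with library totals and on FPKM, beside 13.0%, 13.3% and 13.2% of all tested genes. With a library left out it was between 2 and 4, beside 18.8% to 27.6% of all tested genes. The genes past the threshold over the whole table numbered 65 with DESeq2 (63 higher and 2 lower), 67 with the exact test, 8 with the filter at a mean of 10, 7 on FPKM, and between 3 and 28 with a library left out, the 28 being without NR4A1 overexpression replicate 2, beside 22 in the report, and the causes were not tested. The share of inhibitor transcripts was 13.6% (NR4A1) and 13.5% (vector) in CPM, which does not divide by gene length.

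When replicate numbers entered as a block, 5 genes passed over the whole table, no member did, and no other call reported here changed. The smallest adjusted p of a member was then 0.565 (Nfkb2), from edgeR, and the standard error of Rel went from 0.196 to 0.0773 and that of Nfkbib from 0.215 to 0.114. Same-numbered libraries did not deviate together in all 3 pairs, and 2 of 6 libraries correlated best with their own number, so the block was not taken as the main design. At 63 to 82 counts per library, Nfkbie is limited by depth more than the other members.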
